A study of Homo sapiens with 8 samples.

Results

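The genes described here are 8 members of the complement, coagulation and kinin systems: C1R, C1S, SERPING1, CFI, F3, F2R, PROS1 and BDKRB2. They were chosen by gene name, with their differences between the cell lines already known, and every array probe that carries one of these names was taken. This gave 18 probes of the 50599 on the array, and 8 of its 36337 gene names. Because the members were selected on these values, their levels and differences are given as a description, with no test. Another 113 genes of the same pathways were listed, of which 110 were on the array, and those bright enough were tested. This list was also drawn up with earlier results of these data known.

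The cells were FT293 lines, human embryonic kidney HEK293 cells in which a single inserted construct is switched on by tetracycline. The GFP line expressed green fluorescent protein alone, and the HuR, TIA1 and TIAR lines expressed GFP-HuR, GFP-TIA1 and GFP-TIAR. The tag, the insertion system and tetracycline were thus common to all lines, and no cells without tetracycline are compared. Total RNA of 2 replicates per line was hybridised to 8 one-colour arrays, which the submitters describe as independent biological replicates. One label of the second TIA1 replicate reads GFP-TIA2, whereas its title and genotype read GFP-TIA1.

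TIA1, TIAR and HuR are RNA-binding proteins that recognise U-rich and AU-rich sequences and act on splicing, translation and mRNA decay. Complement is a cascade of plasma proteases that marks surfaces for clearance. C1r and C1s are the serine proteases of its first component, C1 inhibitor (SERPING1) blocks them, and factor I (CFI) cleaves active C3b and C4b. Coagulation starts from tissue factor (F3), is slowed by protein S (PROS1), and acts on cells through the thrombin receptor PAR1, encoded by F2R. C1 inhibitor also blocks plasma kallikrein, the protease that releases bradykinin, whose constitutive receptor is B2 (BDKRB2).

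The probes that carry the main differences are shown with their hg19 positions, 5′ to 3′. The F2R probe of the retained-intron record is given whole because it behaved unlike the F2R mRNA probe, and capitals mark AATAAA, the hexamer of polyadenylation signals. For the others the leading 30 bases are given, and they hold no match.
F2R retained-intron probe A_33_P3212274, chr5:76012549-76012608: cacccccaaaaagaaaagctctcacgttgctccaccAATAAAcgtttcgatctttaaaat
F2R mRNA probe A_23_P213562, chr5:76030669-76030728: agtctgatttaattgggcactatttattta
C1S probe A_23_P2492, chr12:7178093-7178152: gccttgctagaggtagagtttgatcataga
C1R probe A_33_P3393821, chr12:7187836-7187895: tacaccaaagtgctcaactacgtggactgg
C1R probe A_23_P125423, chr12:7187567-7187626: aggatatagttatcaatctctagttgtcac
BDKRB2 probe A_23_P304897, chr14:96710341-96710400: gccctatgcatggtgtagatgccctgataa

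The array design assigns the retained-intron probe to a cDNA record described as carrying an apparent retained intron, and the hexamer starts at base 37 of its 60 bases. Over all 50599 probes, 7.88% held AATAAA in this orientation and 11.3% held it on either strand. On the opposite strand it also occurs in the F2R mRNA probe and in CFI probe A_23_P7212. A match describes the letters only.

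Levels are log2 signals with the array's 75th percentile set to 0, so that 1 unit is a 2-fold change. They compare arrays for a given probe, not probes with each other. Between 53.2% and 58.5% of probes were well above background on 7 arrays, but 86.0% on GFP 1, where the mean local background was 83.2 against 35.7 to 41.5 elsewhere. The GFP arrays correlated at r = 0.947 across probes (genes are not independent replicates), and 15.8% of probes differed 2-fold or more between them, against at most 1.45% in the other lines. Values against GFP are therefore given with and without GFP 1. All arrays lay on 1 slide, with GFP and TIA1 in 1 row and TIAR and HuR in the other. The row and the line therefore cannot be told apart in TIA1 versus HuR, TIAR versus TIA1, TIAR versus GFP and HuR versus GFP. TIAR versus HuR and TIA1 versus GFP each lie within a row. Of 9 markers of HEK293 cells, 8 were well above background on all 8 arrays. The TIAL1 probe A_23_P161488 (TIAL1 encodes TIAR) stood at 4.87 and 4.98 in the TIAR line and at 1.63 to 2.52 in the others. The TIA1 probes and the ELAVL1 probe (HuR) were not highest in their own lines, and whether they lie within the expressed constructs was not tested.

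C1S was the complement member with the widest separation. Probe A_23_P2492 read -1.57 and -1.46 in GFP, -1.03 and -1.06 in HuR, 0.89 and 0.87 in TIA1, and 0.44 and 0.46 in TIAR. Both TIA lines lay above all GFP and HuR arrays, and no line overlapped another. TIA1 exceeded HuR by 1.93 ± 0.09 (SE of the limma fit, n = 2 per line), or 3.81-fold, and TIAR exceeded HuR by 1.49 ± 0.09. The difference from GFP was 2.40 ± 0.19 for TIA1 and 1.96 ± 0.19 for TIAR, and 2.34 and 1.91 against GFP 2 alone. TIAR lay 0.44 ± 0.11 below TIA1. HuR exceeded GFP by 0.47 ± 0.16 on this probe. The other C1S probe, A_33_P3230478, was well above background on 1 TIA1 and 1 TIAR array only. No fold is given for it.

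C1R encodes the protease that activates C1s and is the next protein-coding gene to C1S in RefSeq gene order. Its probe A_33_P3393821 read 0.09 and 0.56 in GFP, 0.02 and -0.02 in HuR, 0.72 and 0.83 in TIA1, and 0.74 and 0.83 in TIAR. The TIA lines overlapped each other and lay above every GFP and HuR array. TIA1 exceeded HuR by 0.78 ± 0.10 and TIAR by 0.79 ± 0.10, short of 2-fold. Probe A_23_P125423 gave 0.89 ± 0.09 for TIA1 and 0.65 ± 0.09 for TIAR against HuR, so both C1R probes differed in the same direction by less than C1S did.

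**Figure D1:**
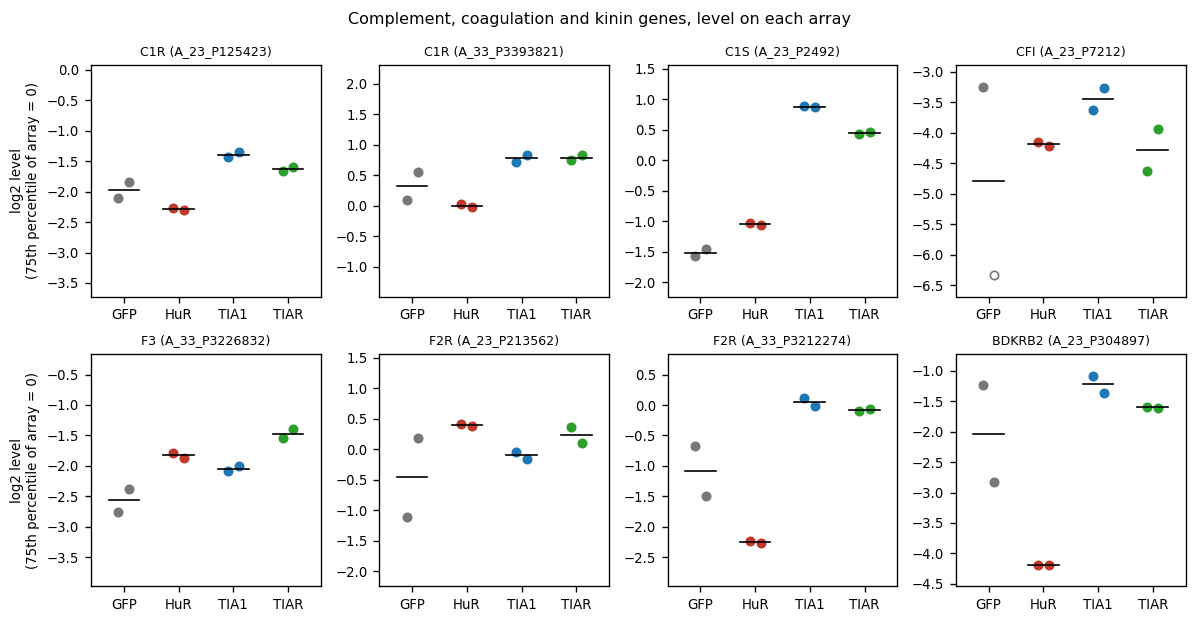
Level of 8 probes of 6 genes on each array (vertical axis, log2 with the array's 75th percentile at 0; every panel spans the same number of log2 units), by line on the horizontal axis; points are arrays, bars are means of 2, and an open point is not well above background. C1S is higher in TIA1 and TIAR than in both GFP and HuR, whereas BDKRB2 and the F2R retained-intron probe A_33_P3212274 are lowest in HuR.

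The complement regulators were dim. SERPING1 probe A_33_P3413987 read -0.89 on GFP 1 and -4.41 on GFP 2, between -4.87 and -4.51 in HuR, -4.10 and -4.01 in TIA1, and -4.56 and -4.30 in TIAR. GFP 1 alone stood apart from the other 7 arrays, which spanned 0.85. TIA1 exceeded HuR by 0.63 ± 0.15 and TIAR by 0.26 ± 0.18, and the TIAR and HuR arrays overlapped. Probe A_33_P3413993 gave 0.36 ± 0.13 and 0.57 ± 0.16 in the same order. These differences were 0.34 and 0.51 with normexp background correction, but 0.09 and 0.23 with quantile normalization. In the authors' log2 values the TIA1 difference of this probe changed sign and the TIAR difference was 0.08. Probe A_33_P3413987 gave 0.115 for TIA1 and -0.16 for TIAR in those values. The remaining SERPING1 probes, A_23_P139123 and A_33_P3413989, were well above background on 3 and 1 of 8 arrays and were not fitted.

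CFI probe A_23_P7212 read -3.24 on GFP 1 and, not well above background, -6.34 on GFP 2. It read -4.15 and -4.21 in HuR, -3.62 and -3.27 in TIA1, and -4.63 and -3.94 in TIAR. TIA1 lay above HuR by 0.74 ± 0.15, while TIAR and HuR overlapped, with a difference of -0.10 ± 0.25. The TIA1 difference from HuR was 0.57 with normexp background correction, 0.47 with quantile normalization and 0.21 in the authors' log2 values. Against GFP the difference moved from 1.35 to 2.89 for TIA1 when GFP 1 was left out, and from 0.51 to 2.05 for TIAR. The second CFI probe, A_24_P92472, was well above background on 2 of 8 arrays.

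F3 encodes tissue factor, the cell-surface trigger of coagulation. Its probe A_33_P3226832 read -2.75 and -2.38 in GFP, -1.78 and -1.87 in HuR, -2.09 and -2.01 in TIA1, and -1.55 and -1.39 in TIAR. The lines did not overlap, and TIA1 and TIAR lay on opposite sides of HuR. The differences from HuR were -0.22 ± 0.10 for TIA1 and 0.35 ± 0.11 for TIAR. TIAR stood 0.58 ± 0.12 above TIA1 and 1.10 ± 0.23 above GFP, or 0.91 above GFP 2 alone.

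The F2R probes moved apart. The retained-intron probe A_33_P3212274 read -0.67 and -1.49 in GFP, -2.24 and -2.26 in HuR, 0.12 and -0.02 in TIA1, and -0.10 and -0.06 in TIAR. Each line was separate from the others, HuR being lowest. TIA1 exceeded HuR by 2.30 ± 0.10, or 4.92-fold, and TIAR by 2.17 ± 0.09, or 4.50-fold. Against GFP the differences were 1.13 ± 0.35 and 1.00 ± 0.35, and 1.54 and 1.41 against GFP 2 alone. The mRNA probe A_23_P213562 read -1.10 and 0.18 in GFP, 0.42 and 0.38 in HuR, -0.04 and -0.16 in TIA1, and 0.37 and 0.11 in TIAR. There HuR was highest, at 0.50 ± 0.10 above TIA1 and 0.16 ± 0.13 above TIAR. Within an array, the change of the mRNA signal minus that of the retained-intron signal was -2.79 log2 units in TIA1 versus HuR and -2.33 in TIAR versus HuR. On GFP 1 this ratio was -3.08 relative to HuR and on GFP 2 it was -0.97, so the GFP arrays did not place GFP with either side. A ratio of this kind shows that the probes changed unequally, and the 60-base probes do not give the structure of the RNA that carries the intron sequence.

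**Figure D2:**
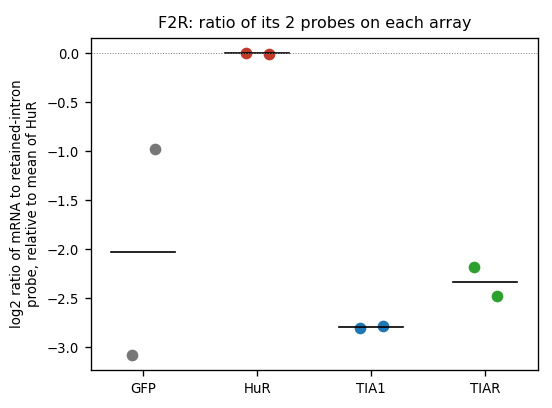
Log2 ratio of the F2R mRNA probe to the F2R retained-intron probe on each array (vertical axis, relative to the mean of the HuR arrays), by line; points are arrays and bars are means of 2. TIA1 and TIAR arrays lie between -2.81 and -2.18, and the GFP arrays lie at -3.08 and -0.97.

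PROS1 encodes protein S, a cofactor of activated protein C, and its 4 probes were well above background on all 8 arrays. The brightest of them, A_23_P73114, read -1.02 and -0.89 in GFP, -0.26 and -0.31 in HuR, -0.67 and -0.36 in TIA1, and -0.08 and -0.85 in TIAR. The TIAR arrays spanned the values of HuR and TIA1, and GFP lay lowest. TIA1 differed from HuR by -0.23 ± 0.14 and TIAR by -0.18 ± 0.28. Across the 4 probes the differences ran from -0.48 to 0.34 in TIA1 versus HuR and from -0.37 to 0.05 in TIAR versus HuR. The design places probe A_33_P3212555 at chr3:90251422-90251481, 3341 kb from the nearest other PROS1 probe, and RefSeq lists a PROS1 pseudogene, PROS2P, on that chromosome. Signals of the gene and the pseudogene may be mixed in this probe. Its TIAR versus HuR difference was -0.30 ± 0.33 and 0.16 without the second TIAR array.

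BDKRB2 encodes the bradykinin B2 receptor and showed the widest difference from HuR of the 8 genes. Its probe A_23_P304897 read -1.24 and -2.83 in GFP, -4.19 and -4.18 in HuR, -1.08 and -1.36 in TIA1, and -1.60 and -1.61 in TIAR. HuR lay below every other array, and GFP 1 lay among the TIA1 values. TIA1 exceeded HuR by 2.96 ± 0.13, or 7.79-fold, and TIAR by 2.58 ± 0.09, or 5.99-fold. HuR lay 2.15 ± 0.61 below GFP, and 1.35 below GFP 2 alone. Against GFP, TIA1 was higher by 0.81 ± 0.60 and TIAR by 0.43 ± 0.60, which became 1.61 and 1.23 without GFP 1. In the authors' log2 values the differences from HuR were smaller, at 2.10 for TIA1 and 1.82 for TIAR.

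**Figure D3:**
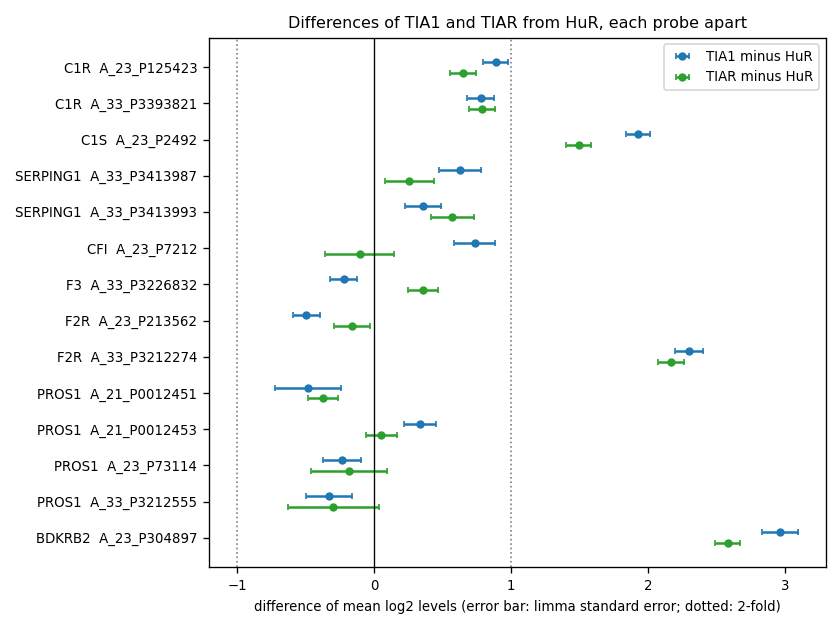
Differences of mean log2 level from HuR (horizontal axis) for the 14 probes of the 8 genes that were bright enough to fit, for TIA1 and TIAR; error bars are limma standard errors, n = 2 arrays per line, and dotted lines mark 2-fold. BDKRB2, the F2R retained-intron probe and C1S lie beyond 2-fold in both lines, and the other probes lie within it.

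A gene was called when at least 1 probe differed 2-fold or more with a Benjamini-Hochberg adjusted p under 0.05 in limma. Of the 18 probes, 14 were bright enough to fit, covering all 8 genes. C1S, F2R and BDKRB2, 3 of the 8, met the rule as higher in TIA1 than in HuR and likewise in TIAR than in HuR, and 0 met it as lower. F2R met it through its retained-intron probe alone, while its mRNA probe was lower in both TIA lines than in HuR. Over all genes tested, 10.2% were called higher and 5.79% lower in TIA1 versus HuR, and 8.62% higher and 3.66% lower in TIAR versus HuR. Nothing is read from the members' counts, since these contrasts were in view when they were chosen. The comparisons share the HuR arrays. C1S in TIAR versus HuR no longer met the rule when the first or the second HuR array was left out, at differences of 1.51 and 1.48. Between TIAR and TIA1, 0 of the 8 genes met the rule, against a background of 1.56% higher and 1.37% lower, and the fitted differences ran from -0.84 for CFI to 0.58 for F3.

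Against GFP, 0 of the 8 genes met the rule in any of the 3 lines. The background was 0% in both directions in TIA1 versus GFP, TIAR versus GFP and HuR versus GFP, since limma called no gene on the array. At an unadjusted p under 0.05 limma listed 5376, 4228 and 4510 genes in these comparisons, of 20741, 21163 and 21376 tested. The spread between the GFP arrays enters each of these fits.

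For 7 of the members a probe was well above background on all 8 arrays (CFI had none), and the genes with the nearest pattern were found by the root mean square distance of centred log2 levels over the 8 arrays. Nearest to C1S was LOC200609 at 0.11, then THC2544198 at 0.13 and ARHGAP4 at 0.15. Nearest to BDKRB2 were DNAH2 at 0.25, DRD2 at 0.26 and BAIAP3 at 0.26. C1R was nearest to PABPC1L at 0.05, ORMDL3 at 0.06 and TPM2 at 0.08, and F3 to KRT18, CHAC1 and SNORD124, each at 0.09. The F2R mRNA probe was nearest to CTSL1P8 at 0.11, SMARCA2 at 0.12 and ITGA6 at 0.12, and PROS1 to LOC145474, MAU2 and LRRC47 at 0.11 to 0.12. SERPING1, whose pattern rests on GFP 1, was nearest to SRRM3 at 0.13, PRSS3 at 0.14 and TYROBP at 0.16. Distances grow with the range of the member, so they do not compare members.

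Among the other genes of these pathways, 58 were bright enough to test in TIA1 versus HuR. In limma, 11 (19.0%, against 10.2% of all genes) were higher in TIA1 and 3 (5.17%, against 5.79%) were lower. In TIAR versus HuR 59 were tested, of which 11 (18.6%, against 8.62%) were higher and 0 (0%, against 3.66%) lower. The list was drawn up with earlier results of these data known, so these shares are a description and no independent support. At an unadjusted p under 0.05 limma listed 42 of the 58 in TIA1 (72.4%, against 57.7% of all genes) and 34 of the 59 in TIAR (57.6%, against 50.9%). With quantile normalization the splits were 8 higher and 4 lower in TIA1, and 8 higher and 1 lower in TIAR. The median difference of these genes was 0.33 in TIA1 versus HuR and 0.27 in TIAR versus HuR, against 0.08 and 0.06 over all genes tested. Of the 110 genes on the array, 39 had no probe well above background outside GFP 1.

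**Figure D4:**
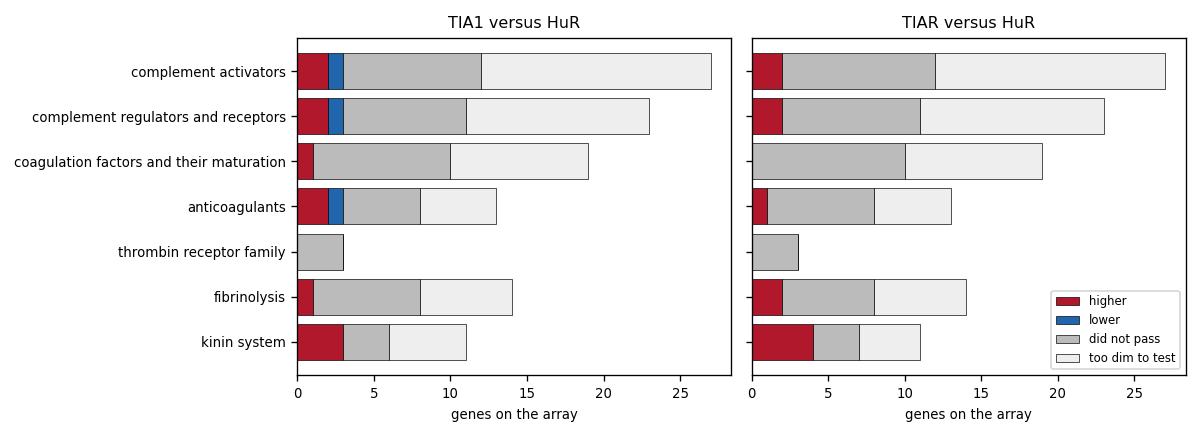
Number of other pathway genes on the array in each role group (horizontal axis), split into higher, lower, not passing the test and too dim to test, for TIA1 versus HuR and TIAR versus HuR. The kinin system holds 3 higher of 6 tested genes in TIA1 and 4 of 7 in TIAR, and the thrombin receptor family holds none of 3. Over all genes tested, 10.2% were higher in TIA1 and 8.62% in TIAR.

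The kinin system had 3 of 6 tested genes (50%, against 10.2% of all genes) higher in TIA1 than in HuR. In TIAR 4 of 7 (57.1%, against 8.62%) were higher, of which BDKRB1 and CPN1 entered the fit through the TIAR arrays alone. In both comparisons 0 were lower, against 5.79% and 3.66% of all genes. BDKRB1, the inducible bradykinin B1 receptor and the next protein-coding gene to BDKRB2, read -3.20 and -4.70 in GFP, -2.76 and -2.88 in TIA1, and -2.94 and -2.63 in TIAR. Neither HuR array measured it well above background. At the main scaling it was at least 9.21-fold higher in TIA1 than in HuR (limma adjusted p = 0.00204). In TIAR it was at least 9.43-fold higher (adjusted p = 0.00411). These bounds are set by the lowest signal of any probe flagged well above background on each HuR array, which is no fixed detection limit. BDKRB1 entered both fits through the TIA arrays alone, and the p-values rest on HuR signals not well above background. The receptor pair thus shared their lowest levels in HuR. KLK1, tissue kallikrein, which releases kinins, read -1.50 and -2.74 in GFP, -3.34 and -3.56 in HuR, -0.65 and -0.51 in TIA1, and -1.44 and -1.28 in TIAR. It was higher than in HuR by 2.87 ± 0.13 in TIA1 (adjusted p = 0.00179) and by 2.09 ± 0.13 in TIAR (adjusted p = 0.00455). MME, neprilysin, which degrades kinins, was higher by 1.61 ± 0.11 and 1.80 ± 0.12 on probe A_33_P3370094 (adjusted p = 0.00282 and 0.00492). Its probe A_33_P3290707 gave 0.60 ± 0.09 and 0.46 ± 0.13, which did not reach 2-fold, and probe A_24_P260101 passed in TIA1 only (1.53 ± 0.22, adjusted p = 0.0104, against 0.96 ± 0.13 in TIAR). The fourth gene called in TIAR was CPN1, the catalytic subunit of carboxypeptidase N, which was too dim to test in TIA1 versus HuR. The stability of the CPN1 call was not tested. BDKRB1 and KLK1 kept their calls in all 9 alternative fits of each comparison, but the smallest BDKRB1 difference among them was 1.525 in TIA1 and 1.37 in TIAR, below the bounds given above. MME probe A_33_P3370094 lost its call in 3 of 9 fits in TIA1 and in 4 of 9 in TIAR, and A_24_P260101 in 4 of 9 in TIA1.

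**Figure D5:**
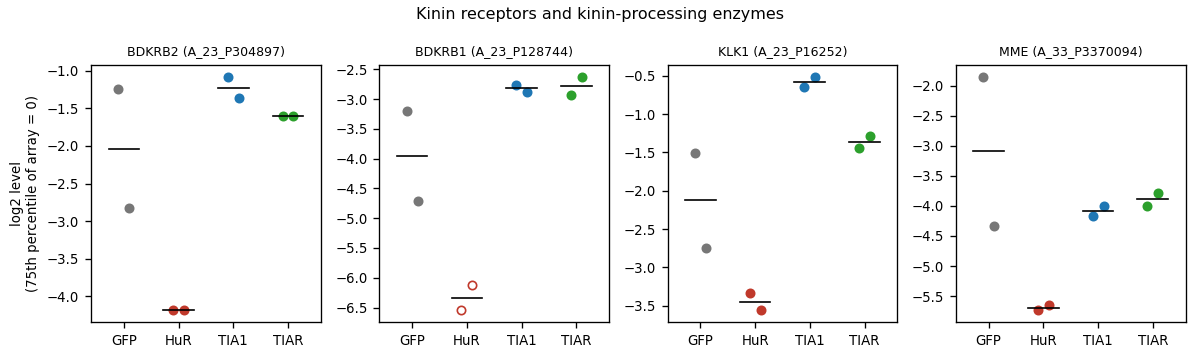
Levels of BDKRB2, BDKRB1, KLK1 and 1 MME probe on each array (vertical axis, log2 with the array's 75th percentile at 0, scaled per panel), by line; points are arrays, bars are means of 2 and open points are not well above background. HuR is lowest in each panel, and the GFP arrays differ from each other by more than 1 unit.

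Among complement activators 2 of 12 tested genes (16.7%, against 10.2% of all genes) were higher in TIA1 than in HuR. In TIA1 1 (8.33%, against 5.79%) was lower, and in TIAR 2 of 12 (16.7%, against 8.62%) were higher. MASP2, which encodes a protease of the lectin pathway, read -3.27 and -3.98 in GFP, -2.64 and -2.84 in HuR, -1.02 and -0.61 in TIA1, and -1.05 and -1.22 in TIAR on probe A_33_P3247571. It was higher than in HuR by 1.92 ± 0.18 in TIA1 (limma adjusted p = 0.00431) and by 1.60 ± 0.13 in TIAR (adjusted p = 0.00579). Its second probe, A_33_P3307990, passed in TIA1 (1.49 ± 0.31, adjusted p = 0.0246), a call lost in 4 of 9 alternative fits, and gave 0.43 ± 0.31 in TIAR. The TIAR call of A_33_P3247571 was lost in 1 of 9. The design assigns these probes to different MASP2 transcript records, and which protein product each of them reports was not tested. CFB, factor B of the alternative pathway, was not well above background on either HuR array and entered the fits through the TIA arrays alone. At the main scaling it was at least 2.24-fold higher in TIA1 (limma adjusted p = 0.0226). In TIAR it was at least 2.32-fold higher (adjusted p = 0.0196). It lost its call in 5 of 9 alternative fits of each comparison, with smallest differences of 0.22 and 0.105, below these bounds. C7, a terminal component, was at least 1.49-fold lower in TIA1 than in HuR at the main scaling (limma adjusted p = 0.0403). It also lost its call in 5 of 9 alternative fits. C7 entered this fit through the HuR arrays alone, and the p-value rests on TIA1 signals too dim to be flagged. The smallest C7 difference among the alternatives was -0.249 log2 units, a smaller change than the bound.

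Complement regulators and receptors had 2 of 11 tested genes higher in each TIA line (18.2%, against 10.2% and 8.62% of all genes). In TIA1 1 (9.09%, against 5.79%) was lower. C5AR1, the C5a receptor, was not well above background on either HuR array and entered the fits through the TIA arrays alone. At the main scaling it was at least 6.50-fold higher in TIA1 than in HuR (limma adjusted p = 0.014). In TIAR it was at least 3.76-fold higher (adjusted p = 0.0346). The TIA1 call held in all 9 alternative fits, with a smallest difference of 1.455, below the bound. The TIAR call was lost in 4 of 9, and there the smallest difference was 0.60, also below it. SUSD4, a complement inhibitor of the cell membrane, was higher by 1.46 ± 0.09 and 1.06 ± 0.11 on probe A_24_P259607 (adjusted p = 0.0026 and 0.00875), calls lost in 1 and 6 of 9 alternative fits. Probe A_23_P201066 gave 1.76 ± 0.15 and 1.55 ± 0.33 (adjusted p = 0.00399 and 0.0347), lost in 1 and 5 of 9. The brighter probe A_33_P3327663 gave 0.59 ± 0.11 and 0.39 ± 0.11, short of 2-fold. CR2, the receptor for C3d, read -0.56 and -0.55 in GFP, -0.43 and -0.31 in HuR, -2.01 and -2.16 in TIA1, and -0.34 and -0.46 in TIAR on probe A_33_P3281985. TIA1 alone stood apart, at 1.71 ± 0.11 below HuR (adjusted p = 0.00265), and TIAR exceeded TIA1 by 1.69 ± 0.13 (adjusted p = 0.0221). The latter call was lost in 5 of 9 alternative fits, namely the replicate block and the removal of any 1 array. The second CR2 probe, A_33_P3303697, gave -1.96 ± 0.17 in TIA1 versus HuR and 1.86 ± 0.18 in TIAR versus TIA1, calls lost in 1 and 7 of 9 fits.

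Among coagulation factors 1 of 10 tested genes (10%, against 10.2% of all genes) was higher in TIA1 and 0 (against 8.62%) in TIAR. At an unadjusted p under 0.05 limma listed 7 and 8, a threshold that 57.7% and 50.9% of all genes met. VWF, the platelet-binding carrier of factor VIII, was higher by 1.03 ± 0.14 on probe A_23_P105562 (limma adjusted p = 0.00863). The call was lost in 5 of 9 alternative fits, and probe A_21_P0012280 gave 0.20 ± 0.16. None of the 3 other thrombin receptors passed in either comparison (limma), with 1 at an unadjusted p under 0.05 in TIA1 and 0 in TIAR. Of these receptors 2, F2RL1 and F2RL3, were well above background on all arrays.

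Anticoagulants held 2 higher (25%, against 10.2% of all genes) and 1 lower (12.5%, against 5.79%) of 8 tested genes in TIA1 versus HuR. In TIAR 1 of 8 (12.5%, against 8.62%) was higher. GAS6, a protein S homologue that activates TAM receptors, was higher in TIA1 by 1.13 ± 0.12 (limma adjusted p = 0.00543) and gave -0.27 ± 0.23 in TIAR. Its TIA1 call was lost in 4 of 9 alternative fits. TFPI2, an inhibitor of serine proteases, read 1.23 and 1.06 in HuR, -0.24 and 0.04 in TIA1, and 1.04 and 0.97 in TIAR. It was 1.25 ± 0.14 lower in TIA1 than in HuR (adjusted p = 0.00628) and 1.11 ± 0.14 higher in TIAR than in TIA1 (adjusted p = 0.0405). These calls were lost in 1 and 7 of 9 alternative fits, the former without the first HuR array. PROC, protein C, was higher by 1.37 ± 0.35 in TIA1 (adjusted p = 0.0406) and by 1.66 ± 0.34 in TIAR (adjusted p = 0.0312), and these calls were lost in 8 and 7 of 9 alternative fits. This probe, A_33_P3379922, was not well above background on HuR 1 and entered both fits through the TIA arrays alone. The other PROC probe, A_23_P40096, was well above background on GFP 1 only.

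Fibrinolysis genes gave 1 of 8 higher in TIA1 (12.5%, against 10.2% of all genes) and 2 of 8 in TIAR (25%, against 8.62%). PLAUR, the urokinase receptor, read -0.06 and -2.67 in GFP, -2.35 and -2.20 in HuR, -0.48 and -0.54 in TIA1, and -0.999 and -0.882 in TIAR. It was higher than in HuR by 1.76 ± 0.10 in TIA1 (limma adjusted p = 0.00246) and by 1.33 ± 0.11 in TIAR (adjusted p = 0.00613). These calls were lost in 1 and 3 of 9 alternative fits, in TIAR also without either HuR array. SERPINE2, protease nexin 1, passed in TIAR (1.20 ± 0.16, adjusted p = 0.0132) and gave 0.67 ± 0.12 in TIA1, short of 2-fold. Its call was lost in 2 of 9 alternative fits, those without either HuR array.

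Markers of other cell types were measured beside these genes. Of 6 leukocyte markers 4 (CD14, CD68, PTPRC and AIF1) were well above background on all 8 arrays, while CD163 and CSF1R were not outside GFP 1. The log2 of their summed levels was -0.25 to -0.02 in HuR, 0.97 to 1.04 in TIA1 and 1.06 to 1.09 in TIAR, and -0.09 to 1.75 in GFP. For 8 hepatocyte markers the sum was -2.83 to -2.68 in HuR, -1.55 to -1.51 in TIA1 and -1.83 to -1.64 in TIAR, with APOB, TTR and APOH not well above background outside GFP 1. The 6 endothelial markers summed to -2.23 to -1.88 in HuR, -2.002 to -1.857 in TIA1 and -2.13 to -1.95 in TIAR. The 6 fibroblast markers summed to -0.85 to -0.80 in HuR, -1.05 to -0.83 in TIA1 and -0.34 to -0.06 in TIAR. The part of these genes in the differences of C1S, C5AR1 or PLAUR was not tested. Of the hepatocyte and fibroblast markers, only APOA1 and COL1A1 were well above background on all 8 arrays. All lines derive from HEK293 cells, so the sums give levels of marker RNA and no counts of cells.

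With GFP 1 left out, the GFP comparisons rest on 1 GFP array, which is assumed to vary like the other line. Of the other pathway genes, 11 of 55 were then higher in TIA1 than in GFP and 1 lower, against 8.94% and 5.14% of all genes. The lower one was CR2. In TIAR versus GFP 8 of 57 were higher and 0 lower, against 6.19% and 2.07%, and BDKRB1, KLK1, MASP2, C5AR1 and PLAUR were among the higher genes in both lines. In HuR versus GFP 6 of 57 were higher and 6 lower, against 5.87% and 4.92%, and BDKRB1 and MME were among the lower ones. With GFP 2 left out these comparisons rest on GFP 1, and most of the pathway genes called were lower. More genes were called over the whole array in that setting too. Nothing is therefore read from this turn about the pathway genes. With both GFP arrays the counts were 0 in limma, with 17, 10 and 12 genes at an unadjusted p under 0.05 in TIA1, TIAR and HuR (30.9%, 17.5% and 21.1%, against 25.9%, 20.0% and 21.1% of all genes). Between TIAR and TIA1, 2 of 56 genes were higher, CR2 and TFPI2 (3.57%, against 1.56%), and 0 lower, against 1.37%. At an unadjusted p under 0.05 limma listed 22 of them (39.3%, against 27.9% of all genes).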

How the data were processed

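RNA of 4 FT293 lines (GFP, HuR, TIA1, TIAR) was measured with 2 one-colour arrays each. The deposited intensity values are processed signals from Feature Extraction 10.7.3.1, background-subtracted within each array by the authors' scanner software. The authors' series table holds deposited log2 values after quantile normalization, with TIAR arrays on a separate distribution, and served as an alternative.

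Signals were log2-transformed, each array's 75th percentile over 58717 non-control spots was subtracted, outlier spots were dropped, and spots of a probe were averaged. No member spot was dropped. A probe was fitted where both arrays of either compared line were well above background, with limma 3.58.1 in R 4.3.3 on the 4 arrays compared, and was called at a 2-fold change and a Benjamini-Hochberg adjusted p under 0.05 over all probes tested. The fit was tested on simulated data. The number of arrays limits the precision. P-values measure the spread between these samples only.

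The members and gene lists were chosen with earlier results of these data known. Of other pathway genes, up to 3 called genes with the largest difference per role group were named in each comparison with HuR, and up to 2 elsewhere; CPN1 was named after its value was seen. Positions are those of the array design (hg19). All 8 member symbols matched RefSeq, as did 112 of the 113 other pathway genes. Alternatives were normexp background correction, quantile normalization, the authors' log2 values, other filters, all arrays in 1 fit, a replicate block, fits without 1 array, and the methods' t-test.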

Additional observations from a re-analysis of the deposited data

Results flagged for a closer look

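F3 (tissue factor, probe A_33_P3226832) was singled out because both TIA1 arrays lay below both HuR arrays and both TIAR arrays lay above them; TIAR exceeded TIA1 by 0.58. As a gene chosen with its values known it has no test of its own, so this difference between the lines was not tested beyond the fit across all probes, in which it did not meet the call rule. CR2 was singled out because limma called TIAR higher than TIA1 on both probes, by 1.69 on A_33_P3281985 and 1.86 on A_33_P3303697. On A_33_P3281985 both TIA1 arrays also lay below, and both TIAR arrays above, the GFP arrays. TFPI2 (A_23_P393620) was likewise called higher in TIAR than in TIA1, by 1.11. The CR2 and TFPI2 calls between TIAR and TIA1 were lost when any 1 array was left out and with the replicate block. For these genes and F3, the slide row and the line cannot be told apart in TIAR versus TIA1.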

How the results depend on the processing

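The number of other pathway genes called was 14 in TIA1 versus HuR, where 15.9% of all genes tested were called. It was 8 with normexp background correction (9.32% of all genes) and 7 with the authors' log2 values (7.15%). With probes well above background on all 4 arrays it was 9 (13.6%), and with all 8 arrays in 1 fit 9 (11.3%). The methods' t-test gave 7 (8.41%), and 0 (0%) after its Benjamini-Hochberg adjustment. Leaving out 1 array gave 10 to 16. In TIAR versus HuR it was 11 (12.2% of all genes). The authors' log2 values gave 5 (5.35%), and probes well above background on all 4 arrays gave 6 (10.0%). All 8 arrays in 1 fit gave 6 (7.77%), the methods' t-test 5 (5.85%), and its adjustment 0 (0%). Leaving out 1 array gave 3 to 11, with 4 and 3 when the first or the second HuR array was left out. In TIAR versus TIA1 it was 2, and 1 with normexp, 1 with the authors' log2 values, 0 without a filter on dim probes, 0 with the t-test adjusted, and 0 to 0 on leaving out 1 array. Against GFP it was 0 in each line. With all 8 arrays in 1 fit it was 7, 2 and 5 in TIA1, TIAR and HuR (11.2%, 7.49% and 5.04% of all genes). The methods' t-test gave 2, 1 and 2 (3.34%, 2.36% and 1.99%). Leaving out 1 array gave 0 to 18, 0 to 17 and 0 to 22, and every count above 0 came from leaving out a GFP array: 12, 8 and 12 without GFP 1 and 18, 17 and 22 without GFP 2. The other settings stayed within 1.5 times the main counts, except the replicate block in TIAR versus TIA1, which gave 0. The cause of these changes was not tested.

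With the replicate number as a block the counts were 13 in TIA1 versus HuR, 10 in TIAR versus HuR, 0 in TIAR versus TIA1 and 0 against GFP. The deviations of same-numbered arrays correlated between -0.09 and 0.18 over 24959 probes. The highest values were 0.18 for TIA1 with TIAR and 0.13 for HuR with TIA1. Whether the replicate numbers pair these arrays was not tested. The median difference over all probes in TIA1 versus HuR was 0.08, and 0.16 with normexp. With quantile normalization the GFP comparisons shifted to 0.24, 0.21 and 0.23 for TIA1, TIAR and HuR. The differences from HuR that met the rule for C1S, F2R (retained-intron probe) and BDKRB2 kept their direction in all alternatives. The smallest was 1.37 for C1S in TIAR with the authors' log2 values. The dim probes of SERPING1, CFI and C1S were not fitted, and these genes were read from their other probes.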
